A study of Mus musculus with 16 samples.

Results

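The renin-angiotensin system was followed through 6 genes in the seminal vesicle (SV) of 5-week-old mice, and 5 of them were analysed among the 31274 genes of the deposited expression table. These were Ren2 (renin), Agt (angiotensinogen), Ace (angiotensin-converting enzyme), Agtr1a (an angiotensin II receptor) and Atp6ap2 (the prorenin receptor). The 6 genes were listed by name, and the list was chosen by the low Ren2 level in WT-DES relative to αERKO-DES, so the values of these 2 groups set beside each other are given without a test. Ren1 was not analysed here. C57BL/6 mice carry 1 renin gene, Ren1, while some other strains also carry Ren2, a near-identical copy. The annotation behind the table is not given in the sources used here, so whether its Ren2 values hold reads from one or both copies is uncertain.

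Renin cleaves angiotensinogen to angiotensin I, and converting enzyme on the cell surface trims this to angiotensin II, which acts through its type 1 and type 2 receptors on blood vessels, salt balance and tissue growth. Renin is best known from the juxtaglomerular cells of the kidney, but it is also made in some exocrine glands, among them the submandibular gland and the male accessory glands. The prorenin receptor binds renin and its precursor, and the same protein is an accessory part of the vacuolar proton pump (V-ATPase), which acidifies vesicles in nearly all cells.

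RNA-seq values were available for 16 samples in 4 groups of 4, from male mice on a C57BL/6 background at week 5. WT-veh mice had a normal oestrogen receptor α (ERα) gene and were injected with corn oil as neonates. WT-DES mice received diethylstilbestrol (DES), a synthetic oestrogen, in corn oil on days 1 to 5 of life, with a daily dose of 2 µg for each pup. The αERKO-veh and αERKO-DES mice were given the same 2 treatments and lacked ERα in every tissue, since the Esr1 gene is disrupted in the germ line and homozygous null males were bred from heterozygous parents. The WT pups came from pregnant C57BL/6 females obtained from Charles River, so genotype and origin of the litters cannot be told apart. The SV was dissected from the anterior prostate. The methods describe individual mice for the other groups and 3 pools of mice for WT-DES RNA, yet 4 libraries per group for RNA-seq. Which WT-DES libraries share animals is not known, so each test measures the spread between these samples.

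Expression was deposited as FPKM, which scales fragments by transcript length and by the fragments mapped, so sequencing depth is unknown and no counting interval can be given. The summed FPKM of a sample ranged from 375207 to 652708. Esr1 was 2.81 to 4.55 FPKM in WT-veh and 8.74 to 19.6 in WT-DES, and 0.91 to 1.75 in the αERKO samples, every one of which was below every WT sample. All 9 SV secretion markers were detected in every group, at a summed 33473 to 70260 FPKM in the WT-veh, αERKO-veh and αERKO-DES samples and 2566 to 8490 in WT-DES. The 7 markers of the prostate lobes were also detected, at 4509 to 12982 FPKM in those 3 groups and 75.0 to 527 in WT-DES. Within αERKO-veh, replicate 2 had the highest value of the group for all 7 endothelial and all 6 fibroblast markers. The change with DES in WT is WT-DES minus WT-veh, the change with DES in αERKO is αERKO-DES minus αERKO-veh, and the interaction is the former minus the latter. Changes were tested with limma on log2(FPKM + 1) over 15988 genes, and a gene was called where the adjusted p was at most 0.05, the mean FPKM differed at least 1.5-fold and it was above 1 in 1 group.

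Ren2 was one of the more abundant transcripts of the SV in 3 groups and close to 0 in WT-DES. The WT-veh samples had 146, 93.1, 113 and 73.5 FPKM, a mean of 106 ± 30.7 (SD, n = 4), which ranked it 968th of the 31274 genes by mean FPKM. The WT-DES samples had 5.65, 0.70, 0.24 and 3.68 FPKM, a mean of 2.57 ± 2.56 (SD, n = 4). Every WT-DES sample was below every sample of the other groups, and the WT-veh mean was 41.3 times the WT-DES mean.

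In αERKO mice the Ren2 transcript stayed abundant after DES. The αERKO-DES samples had 237, 201, 174 and 201 FPKM, with a mean of 203 ± 26.0 (SD, n = 4), or 79.1 times the WT-DES mean. The αERKO-veh samples had 112, 19.9, 195 and 184 FPKM, with a mean of 128 ± 80.7 (SD, n = 4). Replicate 2 of αERKO-veh was the low one, and the spread of that group, 9.81-fold from lowest to highest, was wider than the 1.37-fold spread in αERKO-DES. Ordered by mean, the groups ran from WT-DES through WT-veh and αERKO-veh to αERKO-DES. The WT-veh and αERKO-veh ranges overlapped, as did those of αERKO-veh and αERKO-DES.

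**Figure D1:**
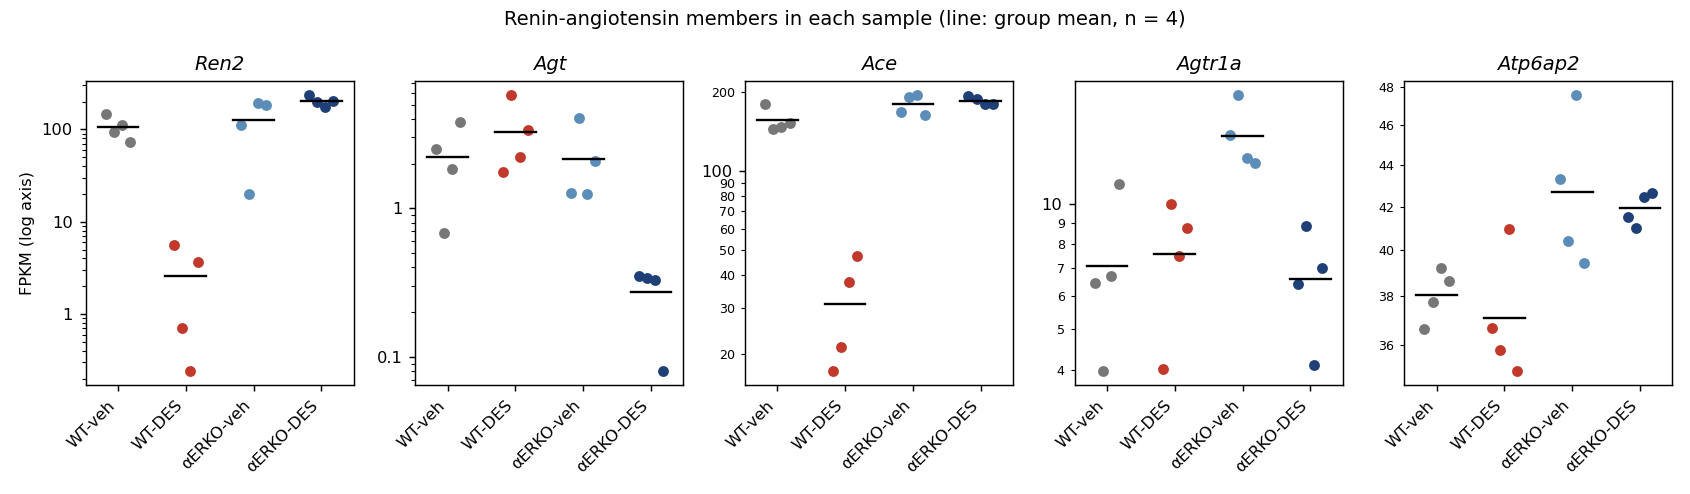
FPKM of Ren2, Agt, Ace, Agtr1a and Atp6ap2 on log axes, 1 point per sample in 4 groups of 4, with a line at the group mean. Ren2 and Ace were lowest in WT-DES, Agt was lowest in αERKO-DES at 0.08 to 0.35 FPKM, and Agtr1a was highest in αERKO-veh at 12.5 to 18.2 FPKM.

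The contrast of αERKO-veh with WT-veh compares the genotypes without DES, and it is the 1 comparison in which Ren2 was tested. In it, loss of ERα and the origin of the litters cannot be told apart. The log2 change of Ren2 was −0.11 (SE 0.62, 95% interval −1.45 to 1.22, limma adjusted p = 0.926). That interval is wide, and without αERKO-veh replicate 2 the estimate was 0.62. Changes within it were not detectable with these samples.

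Within WT-DES, Ren2 shared its order of samples with secretory genes. From high to low it ran from replicate 1 through 4 and 2 to 3. Tgm4, which encodes the transglutaminase that forms the copulatory plug, had 152, 27.4, 6.62 and 66.6 FPKM in WT-DES replicates 1 to 4 and 1453 to 2256 in the other samples. Pbsn (probasin), an androgen-dependent prostate protein, had 166, 31.9, 10.6 and 80.0 FPKM in WT-DES and 1547 to 2265 elsewhere. Svs1, a seminal vesicle secretory protein, had 447, 80.2, 44.95 and 273 FPKM in WT-DES and 3636 to 6952 in the other groups. In all 3 genes the WT-DES replicates stood in the same order as for Ren2. Outside WT-DES this held only for Pbsn in WT-veh, and for none of the 3 in either αERKO group. In αERKO-veh, replicate 2 had the lowest value for Tgm4 (1516), Pbsn (1612) and Svs1 (3636) too, but these were far closer to their group than the 19.9 FPKM of Ren2. The part of the amount of prostate or secretory epithelium in the Ren2 values was not tested. In whole tissue, fewer cells of a type and less RNA per cell cannot be told apart.

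**Figure D2:**
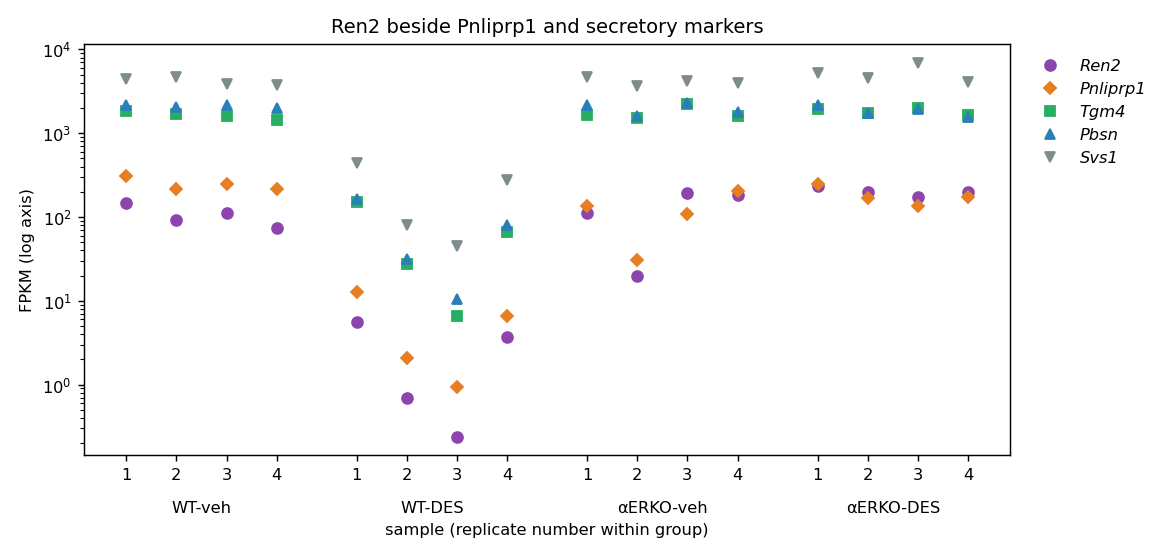
FPKM on a log axis of Ren2, Pnliprp1, Tgm4, Pbsn and Svs1 in each of the 16 samples, ordered by group and replicate number. All 5 genes were lower in WT-DES than in the other groups and fell in the order of replicates 1, 4, 2 and 3 there, and Ren2 and Pnliprp1 dropped to 19.9 and 30.6 FPKM in αERKO-veh replicate 2.

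Among the genes tested, those with a pattern most like Ren2 over the 16 samples, by Pearson's r of log2(FPKM + 1), were Gm5077 (r = 0.974), C1rb (0.973), 2210407C18Rik (0.972), Slc30a6 (0.972), Clcc1 (0.971), Gss (0.971), Ears2 (0.969) and Slc35a2 (0.969). This measure is led by the gap between WT-DES and the rest. The mean FPKM of C1rb, a complement protease gene, was 42.5 for WT-DES, 294 for αERKO-veh, 355 for WT-veh and 383 for αERKO-DES, the same order of groups as for Ren2 apart from the 2 vehicle groups.

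By the deviations of samples from their group means, Pnliprp1, which encodes a pancreatic lipase-related protein, was the most like Ren2 (r = 0.933). The WT-veh samples had 313, 215, 248 and 214 FPKM of it and the WT-DES samples 12.6, 2.07, 0.94 and 6.58. The αERKO-veh samples had 136, 30.6, 108 and 204 FPKM, and the αERKO-DES samples 248, 169.7, 134 and 173. The replicates of WT-veh, WT-DES and αERKO-DES stood in the same order for Pnliprp1 and Ren2, and replicate 2 was the lowest of αERKO-veh for both. Next came Rps23 (0.899), Hist1h3c (0.847), C1rb (0.841), Rpl12 (0.841), Polb (0.839), Gm5077 (0.838) and Gm14005 (0.831). All these values come from the same 16 libraries and are descriptions.

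Agt, the substrate of renin, was a low-level transcript in the SV. It lies on chromosome 8 of GRCm38 from 124556534 to 124569706 on the minus strand (GENCODE M21). Its FPKM was 2.50, 0.68, 1.83 and 3.83 in WT-veh and 1.76, 5.81, 2.22 and 3.37 in WT-DES. In αERKO-veh the samples had 1.26, 4.03, 1.24 and 2.09 FPKM, and in αERKO-DES they had 0.35, 0.34, 0.33 and 0.08. The αERKO-DES samples were below all others, while the other 3 groups overlapped one another.

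The 250 bases before the RefSeq start of Agt are shown because the groups differ in an oestrogen receptor. They lie at chr8:124569707-124569956 on the minus strand of GRCm38.p6, upstream of the annotated transcript, and are printed 5′ to 3′ in the direction of the gene. Capitals mark TATAA, the core of a TATA box, and GGTCA, an oestrogen response element half-site, searched on both strands:
Agt upstream: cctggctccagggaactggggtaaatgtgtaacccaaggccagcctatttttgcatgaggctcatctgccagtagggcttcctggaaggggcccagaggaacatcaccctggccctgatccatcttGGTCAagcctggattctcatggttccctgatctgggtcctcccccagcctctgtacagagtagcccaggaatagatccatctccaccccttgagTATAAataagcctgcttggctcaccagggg

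TATAA began 30 bases and GGTCA 124 bases before the start. Of 32851 RefSeq promoter windows of the same 250 bases, 22.8% held TATAA and 35.2% held GGTCA on either strand. A match of letters is not a shown binding site.

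The log2 change of Agt between αERKO-veh and WT-veh was −0.01 (SE 0.34, limma adjusted p = 0.994) and 0.43 with DES in WT (SE 0.34, limma adjusted p = 0.259). With DES in αERKO the change was −1.23 (SE 0.34, 95% interval −1.95 to −0.51, limma adjusted p = 0.0573), so Agt was not called although its mean was 7.84 times lower and the samples did not overlap. Leaving out WT-veh replicate 4, WT-DES replicate 1, or αERKO-veh replicate 1 or 3 brought it past the threshold, with an adjusted p of 0.0493, 0.0380, 0.0377 and 0.0480. A pseudocount of 0.1 in place of 1 also did so, with a log2 change of −2.52 (limma adjusted p = 0.0221). The interaction was 1.66 for Agt (SE 0.47, limma adjusted p = 0.00593) and was called.

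Fat cells are a known source of angiotensinogen, and adipocyte markers moved beside Agt. The summed FPKM of the 6 markers was 15.7 to 41.7 in αERKO-DES, against 63.9 to 649.96 for αERKO-veh, 115 to 615 for WT-veh and 499 to 1176 for WT-DES. With DES in αERKO, 3 of the 6 were called lower, and none of the 6 was at 0 in all samples of a group. Adipoq, which encodes the fat cell hormone adiponectin, had 1.19, 1.64, 1.09 and 0.35 FPKM in αERKO-DES, and the last of these samples was also the lowest for Agt. In αERKO-veh, Adipoq had 22.8, 69.8, 2.18 and 24.3 FPKM, and in WT-veh 34.2, 10.2, 36.2 and 58.6. The highest and the lowest WT-veh samples for Adipoq were also those for Agt. In αERKO-veh the replicates stood in the same full order for both genes. This was not so in WT-DES, where Adipoq had 79.2, 130.5, 65.1 and 181 FPKM. With DES in WT, 5 of the 6 adipocyte markers were called higher, while Agt was not called. In αERKO-veh replicate 3, where Adipoq was near its αERKO-DES values, Agt was 1.24 FPKM, above all αERKO-DES samples. The part of fat attached to the dissected tissue in the Agt values was not tested.

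**Figure D3:**
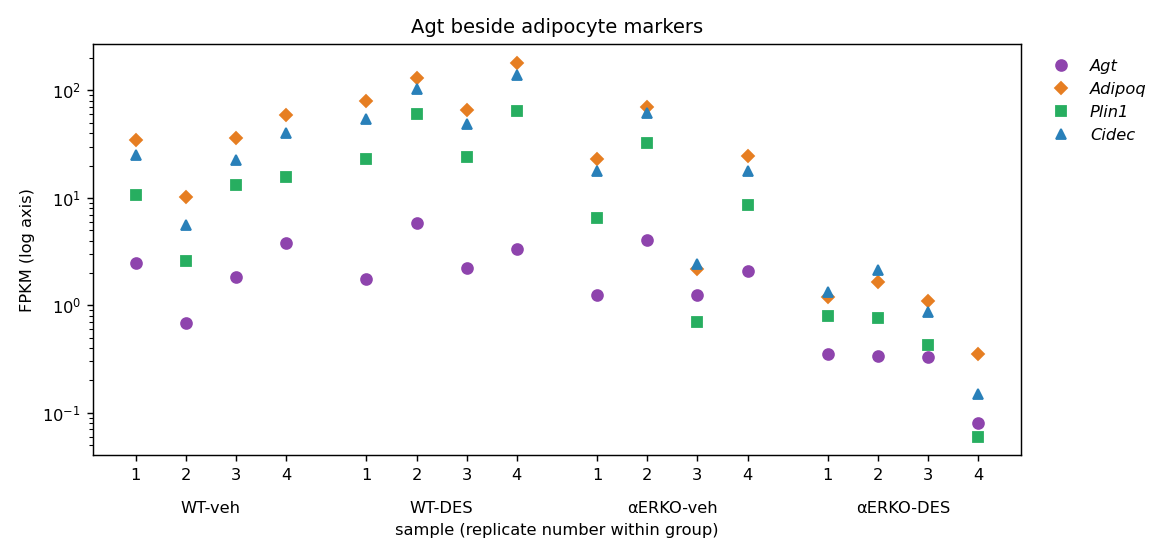
FPKM on a log axis of Agt and the adipocyte markers Adipoq, Plin1 and Cidec in each of the 16 samples, ordered by group and replicate number. Agt, Adipoq and Cidec were lower in every αERKO-DES sample than in any other sample, Plin1 overlapped with αERKO-veh replicate 3, and Agt was highest in WT-DES replicate 2 at 5.81 FPKM and in αERKO-veh replicate 2 at 4.03 FPKM.

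Ace was high in the SV and lower in WT-DES. The gene lies on chromosome 11 of GRCm38 from 105967945 to 105989964 on the plus strand (GENCODE M21). The WT-veh samples had 181, 144, 147 and 152 FPKM, a mean of 156 ± 16.9 (SD, n = 4). The WT-DES samples had 17.1, 21.3, 37.7 and 47.3 FPKM, a mean of 30.9 ± 14.1 (SD, n = 4), and all were below every sample of the other groups.

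Ace stayed high in αERKO mice after DES. The αERKO-veh samples had 168, 191, 195 and 164 FPKM, and the αERKO-DES samples 193, 188, 181 and 180.4, with overlapping ranges and a spread from lowest to highest of 1.07-fold in αERKO-DES. The groups ran from WT-DES through WT-veh and αERKO-veh to αERKO-DES, and only the step from WT-DES to WT-veh had no overlap.

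The fall of Ace with DES in WT was −2.41 on the log2 scale (SE 0.22, 95% interval −2.89 to −1.93, limma adjusted p = 2.19e-07), or a 5.05-fold lower mean. Its changes were 0.20 in αERKO-veh relative to WT-veh (SE 0.22, limma adjusted p = 0.543) and 0.05 with DES in αERKO (SE 0.22, 95% interval −0.43 to 0.53, limma adjusted p = 0.919). The interaction for Ace was −2.46 (SE 0.32, limma adjusted p = 8.29e-06) and was called in every alternative run.

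RefSeq lists 2 starts for Ace in this build. The first opens the long somatic enzyme, and the second lies within intron 12 of the longest annotated transcript of 25 exons, where the short testis enzyme is known to begin. The values per gene do not separate the forms. Both stretches are shown since the change could concern either start. They lie at chr11:105967698-105967944 and chr11:105974939-105975188 on the plus strand of GRCm38.p6, outside annotated exons, with the same motifs in capitals:
Ace somatic start: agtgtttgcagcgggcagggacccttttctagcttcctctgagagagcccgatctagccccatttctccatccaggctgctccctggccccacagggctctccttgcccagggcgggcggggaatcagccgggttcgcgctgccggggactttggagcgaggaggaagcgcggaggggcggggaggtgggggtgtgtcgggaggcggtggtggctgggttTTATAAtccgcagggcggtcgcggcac
Ace internal start: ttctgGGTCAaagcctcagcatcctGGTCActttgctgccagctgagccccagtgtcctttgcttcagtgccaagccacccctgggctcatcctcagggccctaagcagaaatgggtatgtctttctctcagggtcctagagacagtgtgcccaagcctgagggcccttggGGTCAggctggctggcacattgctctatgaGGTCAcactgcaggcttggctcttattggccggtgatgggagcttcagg

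The somatic stretch held TATAA on both strands, in 1 overlapping run of 6 letters that began 30 bases before the start, and no GGTCA. The internal stretch held GGTCA at 245, 225, 79 and 49 bases before its start and no TATAA. The somatic window was rich in CG, with 19 CG pairs in its 250 bases against 1 in the internal window and 0 in that of Agt.

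Endothelial cells are a known site of Ace. The 7 endothelial markers summed to 80.0 to 93.5 FPKM in WT-veh and 154 to 256 in WT-DES, and all 7 were called higher with DES in WT (exact two-sided permutation test of their mean, p = 0.0286, the smallest that 4 samples against 4 allow, and 0.0779 adjusted over 30 tests). Within WT-DES, Ace ran from replicate 1 as the lowest to 4 as the highest, while Ren2 and the secretory markers were highest in replicate 1. Ace therefore did not follow the order of samples of Ren2. The 6 markers of epithelium summed to 953 to 1037 FPKM in WT-veh and 575 to 952 in WT-DES, with 2 called higher and 3 lower. The part of either cell type in the Ace values was not tested.

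Agtr1a, the main type 1 receptor gene of mice, was highest in αERKO-veh. It lies on chromosome 13 of GRCm38 from 30336441 to 30382867 on the plus strand (GENCODE M21). The αERKO-veh samples had 14.6, 18.2, 12.8 and 12.5 FPKM, and the WT-veh samples 6.45, 3.97, 6.72 and 11.2. All αERKO-veh samples were above all WT-veh samples, by a ratio of means of 2.06.

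After DES the Agtr1a values of both genotypes overlapped. They were 4.03, 10.0, 7.48 and 8.75 FPKM in WT-DES and 6.42, 8.82, 4.11 and 7.02 in αERKO-DES. These groups and WT-veh overlapped, and the step up to αERKO-veh was the 1 step in the order of groups without overlap. Levels per transcript length were above those of Agt in every group mean.

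In αERKO-veh relative to WT-veh, Agtr1a rose by 1.00 on the log2 scale (SE 0.28, 95% interval 0.41 to 1.60, limma adjusted p = 0.0192). It was the 1 called member of the 5 tested in this comparison, in which 7.12% of all genes tested were called, 4.50% as higher and 2.63% as lower. The call was lost without αERKO-veh replicate 2, where the change was 0.90 (limma adjusted p = 0.0684). The change with DES in αERKO was −1.06 (SE 0.28, limma adjusted p = 0.0519) and was not called, and without WT-veh replicate 4 or WT-DES replicate 1 the adjusted p was 0.0368 and 0.0280. The change with DES in WT was 0.10 (SE 0.28, 95% interval −0.49 to 0.69, limma adjusted p = 0.756). The interaction was 1.16 (SE 0.39, limma adjusted p = 0.0160) and was called, but not after quantile normalization (limma adjusted p = 0.0931).

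Of the 6 skeletal muscle markers, 2 were called higher in αERKO-veh relative to WT-veh, with summed FPKM of 577 to 1874 against 565 to 1589. Ckm, the muscle creatine kinase gene, had 51.2, 222, 345 and 196 FPKM in αERKO-veh replicates 1 to 4 and 32.8, 32.7, 47.2 and 273 in WT-veh. Agtr1a was 14.6 FPKM in αERKO-veh replicate 1, where Ckm was low, and 11.2 in WT-veh replicate 4, where Ckm was high. The summed FPKM of the 8 smooth muscle and pericyte markers was 1727 to 2396 in αERKO-veh and 2374 to 2876 in WT-veh. Of these markers, 2 were called higher and 0 lower. Of the 7 endothelial markers, 2 were called higher, with a sum of 83.5 to 140.3 FPKM in αERKO-veh and 80.0 to 93.5 in WT-veh. Pecam1 was 39.4 FPKM in αERKO-veh replicate 2, without which Agtr1a was not called, and 24.1 to 26.8 in the rest of that group. The part of these cells in the Agtr1a values was not tested.

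Atp6ap2 was the steadiest of the 5 genes. It lies on the X chromosome of GRCm38 from 12587801 to 12617049 on the plus strand (GENCODE M21). The WT means were 38.1 ± 1.13 FPKM with vehicle and 37.1 ± 2.67 with DES, and the αERKO means 42.7 ± 3.64 and 41.9 ± 0.761 (SD, n = 4 each). All samples lay between 35.0 and 47.6 FPKM.

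No change of Atp6ap2 was called. The largest, between αERKO-veh and WT-veh, was 0.16 (SE 0.06, 95% interval 0.02 to 0.29, limma adjusted p = 0.0787), where the samples of both groups did not overlap. It was −0.04 with DES in WT (SE 0.06, 95% interval −0.17 to 0.10, limma adjusted p = 0.592), −0.02 with DES in αERKO (SE 0.06, limma adjusted p = 0.863) and −0.02 in the interaction (SE 0.09, limma adjusted p = 0.878). These intervals exclude a 1.5-fold change under the deposited scaling. The sign in WT-DES depended on the scaling, since quantile normalization gave 0.30 and rescaling to equal totals without the 20 most abundant genes gave 0.39. That rescaling moved the median log2 change of all genes tested from −0.01 to 0.38 with DES in WT, from −0.02 to 0.11 in αERKO-veh relative to WT-veh and from 0.00 (0.0015) to 0.51 in the interaction. Atp6ap2 was thus close to the median of all genes in WT-DES under the deposited scaling and under this rescaling. After quantile normalization that median was −0.08, and Atp6ap2 at 0.30 was above it (limma adjusted p = 0.00179, not called).

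**Figure D4:**
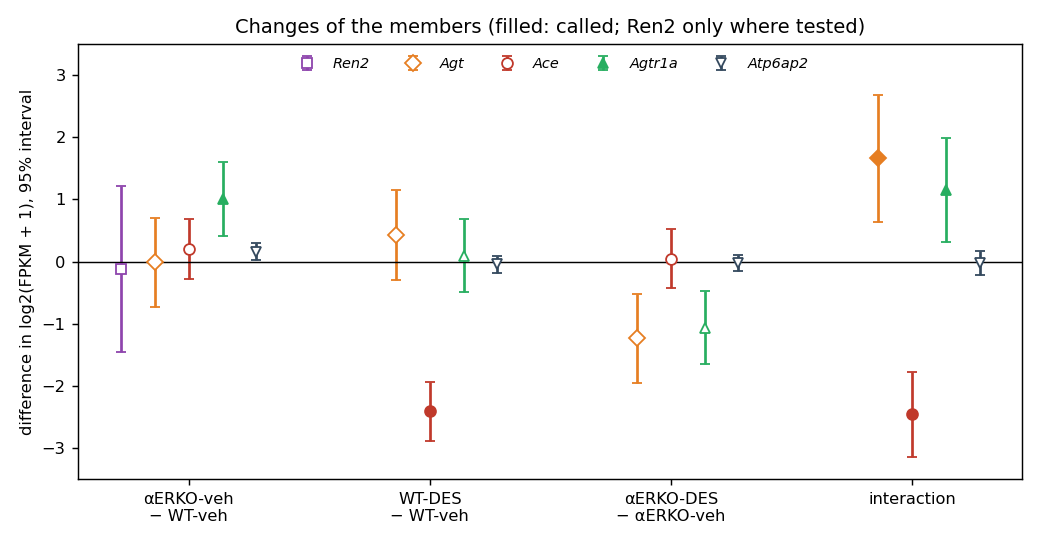
Differences in log2(FPKM + 1) of the 5 genes in the tested comparisons, with 95% intervals from limma, and filled symbols for called changes. Ace was called lower in WT-DES at −2.41, Agtr1a was called higher in αERKO-veh at 1.00, and the interaction was called for Agt, Ace and Agtr1a, with Ren2 shown only in αERKO-veh relative to WT-veh.

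Over the members, 1 of the 4 tested with DES in WT was called, Ace as lower, in a comparison where 52.7% of all genes were called, 28.9% as higher and 23.9% as lower. For DES in αERKO, limma called 0 of 4, with 2 at an unadjusted p under 0.05, and it called 1.49% of all genes, 0.0876% as higher and 1.41% as lower. For the interaction 3 of 4 were called, 2 higher and 1 lower, against 56.4% of all genes, 29.6% higher and 26.9% lower. Between αERKO-DES and WT-DES, on which the list was chosen, the samples of 4 of the 5 members did not overlap, as for 66.5% of all genes, and nothing is read from this count. The αERKO-DES mean was 79.1 times the WT-DES mean for Ren2, 6.01 times for Ace, 1.13 times for Atp6ap2 and 0.871 times for Agtr1a, while the WT-DES mean of Agt was 11.96 times its αERKO-DES mean.

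The wider system was described with 6 lists of further genes. Counting the members, 80 genes were analysed and 73 tested, and 7 were not tested because their mean FPKM was at most 1 in every group. These 7 were Agtr1b and Mas1, receptor genes for angiotensin II and angiotensin 1-7, Mrgprd, Kng1, Bdkrb1, Ctsg and Foxd1. With DES in WT, 50 of 72 genes were called (29 higher, 21 lower), with a median log2 change of 0.16 beside −0.01 over all genes tested. Over all genes tested, 28.9% were called higher and 23.9% lower. The split depended on the scaling, with 35 higher and 9 lower after rescaling without the 20 most abundant genes, and 23 higher and 11 lower after quantile normalization.

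Of 15 tested peptidases that make or break down angiotensins, 9 were called higher and 3 lower in WT-DES (all genes: 28.9% and 23.9%). Klk1, named after its values were seen, is 1 of the 9, with a mean of 0.115 FPKM in WT-veh and 1.025 in WT-DES. It passed the FPKM minimum only through WT-DES and could be called only as higher. Enpep, the aminopeptidase that converts angiotensin II to angiotensin III, had 1.5, 1.2, 1.51 and 1.60 FPKM in WT-veh and 5.26, 14.1, 8.83 and 11.0 in WT-DES, a rise of 2.07 (SE 0.21, limma adjusted p = 5.17e-07). Anpep, which acts on angiotensin III, rose by 2.25 (SE 0.25, limma adjusted p = 1.17e-06), and Lnpep, the angiotensin IV binding site, rose by 1.66 (SE 0.22, limma adjusted p = 7.47e-06). Prcp, a carboxypeptidase that removes the last residue of angiotensin II, rose by 1.02 (SE 0.14, limma adjusted p = 1.51e-05). The cytosolic enzymes Thop1 and Dpp3 fell by 1.61 (SE 0.11, limma adjusted p = 1.30e-08) and 1.46 (SE 0.08, limma adjusted p = 1.30e-09). Of these 12 calls, 6 higher and 2 lower held under all 5 scalings compared, including Enpep, Anpep, Lnpep, Prcp, Thop1 and Dpp3.

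Markers of other cell types rose in the same comparison. All 6 leukocyte markers were called higher with DES in WT, with a summed 21.7 to 35.5 FPKM in WT-veh and 106 to 177 in WT-DES, and so were 5 of 6 fibroblast markers, with 624 to 747 and 1633 to 1771 FPKM. The part of these cells in the rises of the peptidases, Agtr2 and the renin regulators was not tested.

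Mast cell chymase can make angiotensin II without converting enzyme, and the mast cell protease genes were named after their values were seen. Cma1, a chymase gene, had 4.47, 1.31, 2.68 and 3.19 FPKM in WT-veh and 8.33, 5.77, 6.31 and 9.48 in WT-DES, a rise of 1.16 (SE 0.28, limma adjusted p = 0.00151). Mcpt4, another chymase gene, and Cpa3, a carboxypeptidase gene, rose by 0.99 and 0.91 (limma adjusted p = 0.00201 and 0.00462), but Cpa3 was not called after quantile normalization (0.45, limma adjusted p = 0.127). The 5 mast cell markers, which do not include these genes, summed to 10.9 to 13.7 FPKM in WT-veh and 19.6 to 35.4 in WT-DES. Of the 3 tested, 2 were called higher. The third, Hdc, was not called, with 6.26, 6.06, 6.27 and 6.30 FPKM in WT-veh and 18.6, 2.36, 2.05 and 4.09 in WT-DES. WT-DES replicate 1, which had the highest sum of 35.4, held that high Hdc value. The number of mast cells and the part of it in these rises were not tested.

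Mme encodes neprilysin, a membrane peptidase that degrades angiotensins and kinins. The αERKO-veh samples had 47.1, 65.5, 58.8 and 35.4 FPKM and the αERKO-DES samples 15.5, 23.7, 16.3 and 21.99, while WT-veh had 16.1, 14.3, 21.1 and 25.5 and WT-DES 4.58, 16.2, 14.55 and 15.5. All αERKO-veh samples were above all others. Mme rose by 1.38 in αERKO-veh relative to WT-veh (SE 0.32, limma adjusted p = 0.01) and fell by 1.36 with DES in αERKO (SE 0.32, limma adjusted p = 0.0409), where it was the 1 called gene of 72, beside 1.49% of all genes (1.41% lower). In that comparison 4 of 6 skeletal muscle, 3 of 6 adipocyte and 2 of 7 prostate markers were also called lower. So were 1 of 7 endothelial, 1 of 8 smooth muscle and pericyte and 1 of 6 fibroblast markers. The part of all these cells in the Mme values was not tested. Both comparisons share the αERKO-veh samples. The latter call of Mme was lost without WT-veh replicate 1, 2 or 3, WT-DES replicate 3, αERKO-veh replicate 2, 3 or 4, or αERKO-DES replicate 1, 2 or 3, and after quantile normalization.

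Among the receptors and their partners 2 of 5 were tested. Agtr2, the type 2 receptor gene, had 1.11, 2.06, 1.52 and 0.98 FPKM in WT-veh samples and 3.70, 5.01, 7.94 and 7.02 in WT-DES samples. In αERKO mice it had 0.38, 0.30, 0.25 and 0.48 FPKM with vehicle and 0.26, 0.28, 0.18 and 0.27 with DES. All WT samples were above all αERKO samples, and all WT-DES samples were above all WT-veh samples. Agtr2 rose by 1.49 with DES in WT (SE 0.18, limma adjusted p = 2.93e-06) and fell by 0.82 in αERKO-veh relative to WT-veh (SE 0.18, limma adjusted p = 0.00908). The interaction was 1.61 (SE 0.25, limma adjusted p = 5.40e-05). The ratio of Agtr1a to Agtr2 in FPKM was 0.942 to 2.00 for WT-DES and 1.93 to 11.4 for WT-veh, and 22.8 to 31.5 for αERKO-DES and 26.1 to 60.7 for αERKO-veh. The αERKO ratios divide by Agtr2 values of 0.18 to 0.48 FPKM, near the floor, so their size is imprecise. Agtrap, which encodes a protein that binds the type 1 receptor, was within 17.6 to 20.6 FPKM in all 16 samples, and no change of it was called at the deposited scaling, while its interaction was called higher after rescaling without the 20 most abundant genes. Agtrap is named after its values were seen.

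Of the 6 genes of mineralocorticoid action, 2 were called higher and 1 lower in WT-DES (all genes: 28.9% and 23.9%). The higher calls depended on the scaling, with 0 after quantile normalization and 4 after rescaling without the 20 most abundant genes. Sgk1, the aldosterone- and glucocorticoid-induced kinase gene, had 513, 535, 458 and 444 FPKM in WT-veh and 50.6, 52.5, 109.6 and 119.7 in WT-DES, and it fell by 2.64 (SE 0.22, limma adjusted p = 8.65e-08). It was 369 to 530.3 FPKM in the αERKO samples of both treatments. Of the 4 kinin genes, 2 were tested, and both were called higher in WT-DES (all genes: 28.9%). Kng2, named after its values were seen, had a mean of 0.21 FPKM in WT-veh and 1.175 in WT-DES. It passed the FPKM minimum only through WT-DES and could be called only as higher. After quantile normalization Kng2 was not tested.

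Of 20 tested genes that regulate renin or mark renin cells, 13 were called higher and 4 lower in WT-DES (all genes: 28.9% and 23.9%). The counts were 11 and 2 after quantile normalization, 15 and 2 after rescaling, and 9 and 4 with the length trend subtracted. Nr1h3 (liver X receptor α) rose by 1.28 and Rbpj, the Notch effector, by 0.76, with limma adjusted p of 6.91e-06 and 4.58e-07. Adrb1, the β1-adrenoceptor gene, had a mean of 0.455 FPKM in WT-veh and 2.02 in WT-DES. It is among the 13 and passed the FPKM minimum only through WT-DES. Since it could be called only as higher, its rise of 1.04 is a description. Adcy6 and Gnas, which encode an adenylyl cyclase and the stimulatory G protein of the cyclic AMP pathway, fell by 1.05 and 0.82 (limma adjusted p = 1.40e-07 and 2.23e-06), but Gnas was 0.24 after quantile normalization. In αERKO-veh relative to WT-veh the coactivator genes Crebbp and Ep300 were called higher, by 0.64 and 0.68 (limma adjusted p = 0.0132 and 0.00931), in a comparison where the log2 change followed transcript length across genes (Spearman's rho 0.552 over 15048 genes, a description). With each sample's trend on transcript length subtracted, neither was called, at 0.28 for Crebbp and 0.34 for Ep300, while Agtr1a was called at 1.15 (limma adjusted p = 0.0210). With DES in WT the same subtraction ended the calls of Rbpj, Crebbp, Ep300 and Gja5, at 0.51, 0.48, 0.31 and 0.43, where Gja5 is named after its values were seen.

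**Figure D5:**
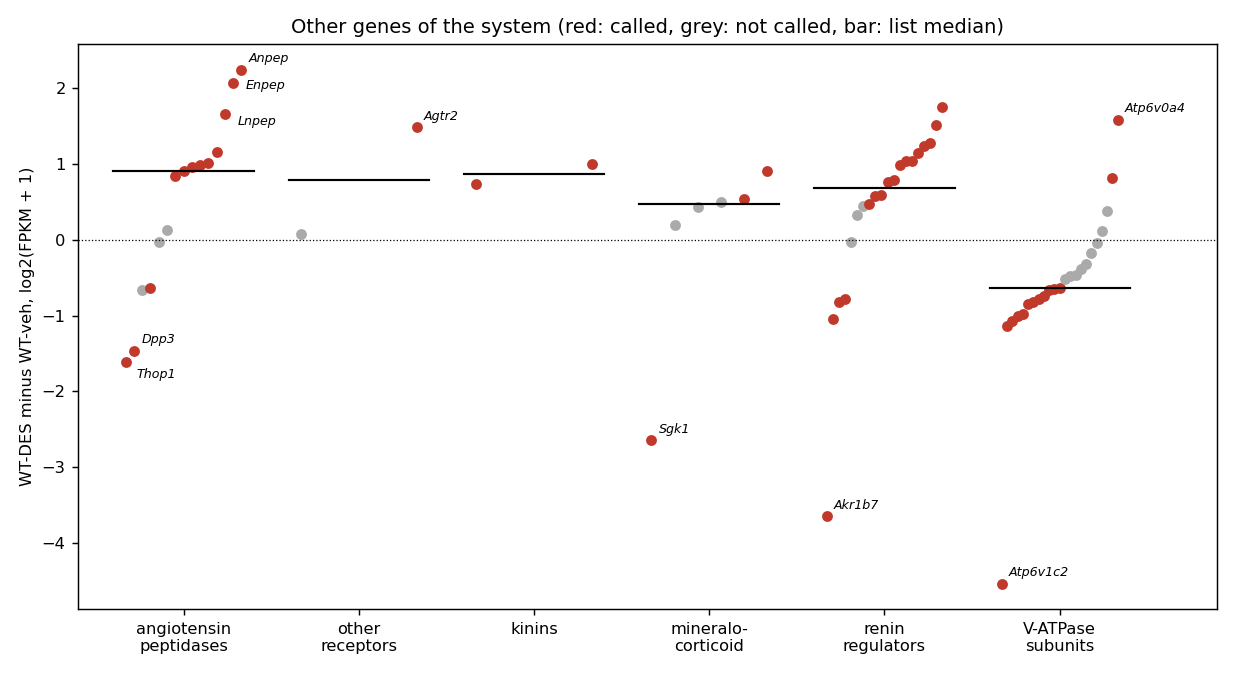
Log2 change with DES in WT of the tested genes of 6 lists, 1 point per gene, red where called and grey where not, with a bar at the median of each list. Angiotensin peptidases and renin regulators were mostly above 0, and V-ATPase subunits mostly below, led by Atp6v1c2 at −4.54.

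The V-ATPase subunits are partners of Atp6ap2. Of 23 tested, 2 were called higher and 12 lower (all genes: 28.9% and 23.9%), with a median log2 change of −0.63. Atp6v1c2, a subunit isoform of some epithelia, had 131, 104, 104 and 116 FPKM in WT-veh and 4.14, 5.33, 2.01 and 4.96 in WT-DES, and it fell by 4.54 (SE 0.20, limma adjusted p = 3.42e-10). It was 79.8 to 145 FPKM in the αERKO samples. Atp6v0e2, Atp6v1d, Atp6v0a1 and Atp6v0d1 fell by 1.14, 0.98, 1.00 and 0.66. Atp6v0a4, the subunit of kidney and inner ear acid-secreting cells, had a mean of 0.37 FPKM in WT-veh and 3.36 in WT-DES. It is 1 of the 2 higher calls and passed the FPKM minimum only through WT-DES. Since it could be called only as higher, its rise of 1.59 is a description.

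The V-ATPase count rests on the scaling. After rescaling without the 20 most abundant genes, 3 subunits were called higher and 3 lower, and after quantile normalization 3 higher and 5 lower. Atp6v0e2, Atp6v1c2, Atp6v1g3 and Tcirg1 were called in the same direction under all 5 scalings, the last 2 being named after their values were seen. So was Atp6v0a4, which at the deposited scaling could be called only as higher. In the same comparison all 9 SV secretion markers and all 7 prostate markers were called lower, and the part of these cells in the falls of V-ATPase subunits and Sgk1 was not tested.

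Over all lists, 7 of 73 genes were called in αERKO-veh relative to WT-veh (6 higher, 1 lower), beside 7.12% of all genes (4.50% higher, 2.63% lower), among them Scnn1a, a sodium channel subunit gene, at 0.71 (limma adjusted p = 0.0199). The interaction was called for 53 of 72 (30 higher, 23 lower), beside 56.4% of all genes, and for 40 higher and 9 lower after rescaling without the 20 most abundant genes.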

How the data were processed

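The authors sequenced SV RNA, aligned reads to mm10 with TopHat2 2.0.4 and computed expression with Cufflinks 2.0.2. The deposited values are FPKM per gene for 31274 genes in 16 samples, and the gene annotation used for them is not given in the sources used here. FPKM hold no counts, so the precision rests on the 4 samples per group.

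limma 3.58.1, run under R 4.3.3, took log2(FPKM + 1) as input. It fitted 1 mean per group over all 16 samples, let the prior variance follow the mean level, and was limited to 15988 genes whose mean exceeded 1 FPKM in some group. P-values were adjusted over these genes by the Benjamini-Hochberg method. Of the list genes, Adrb1, Atp6v0a4, Klk1 and Kng2 passed the FPKM minimum only through WT-DES. With DES in WT they could be called only as higher, and they are counted among the higher calls. Log2 changes on this scale understate those of low genes. For the interaction, a call required a 1.5-fold difference beside the limit of 0.05 on the adjusted p. Marker sets were compared by exact permutation tests over 70 arrangements. The members, lists and tests were chosen with earlier results of these data known.

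The genes named are the members, called list genes (up to 25 per comparison by adjusted p), the 8 genes most like Ren2 by each measure, Esr1 and marker sets. Other names are marked as chosen after their values were seen. Some list genes that the rule covers are counted but not reported singly here. Positions are from GENCODE M21 and sequences from RefSeq on GRCm38.p6, which held promoters of 4 of the 6 members. Agtr1a and Ren2 are named only. Replicate numbers did not pair samples, as described with the limits. Tables and figures were made with Python, pandas and matplotlib. Alternatives were other pseudocounts, FPKM minimums, scalings, a length correction (lowess span 0.3 on the longest GENCODE transcript, for 94.1% of the genes tested), sample weights, a replicate block, no variance trend, a model of only the groups compared, an adjusted p of 0.01 and leaving out each sample.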

Additional observations from a re-analysis of the deposited data

Results flagged for a closer look

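Agt in αERKO-DES was 0.35, 0.34, 0.33 and 0.08 FPKM, and the lowest sample stood apart from the others by 0.926 of the range of the group, above Dixon's 95% critical value for 4 samples. Chance alone passes this limit in about 1 of 20 groups, and 24 groups were examined (5 members and Esr1 in 4 groups each).

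The change with DES differed between WT and αERKO, by the interaction test, for 3 members. The WT change minus the αERKO change was −2.46 for Ace, 1.66 for Agt and 1.16 for Agtr1a, with limma adjusted p of 8.29e-06, 0.00593 and 0.0160. Among the genes of all lists, 53 of 72 passed the same test. The large share of all genes that passed it, 56.4%, stands beside these counts.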

How the results depend on the processing

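Over 17 member results and 195 alternatives other than leaving out samples, 167 kept direction and side of the threshold, 6 passed it, 3 lost the call and 19 changed sign, none of the last for a called value. The fall of Ace in WT-DES and its interaction were called in every alternative run. The cause of the changes below was not tested.

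By sample weights, Ren2 in αERKO-veh relative to WT-veh was 0.54 (quantile normalization 0.0545, rescaling without the 20 most abundant genes 0.0659). Agt in the same comparison was 0.0249 with a pseudocount of 0.1, 0.11 with sample weights, 0.0024 with median-ratio scaling, 0.12 with rescaling and 0.17 with the length correction. After quantile normalization the changes with DES in WT were −0.0219 for Agt, −0.18 for Agtr1a and 0.30 for Atp6ap2, which was 0.39 with rescaling and 0.13 with the length correction. With DES in αERKO, Ace was −0.14 with quantile normalization and −0.0808 with rescaling, and Atp6ap2 0.0562 with sample weights. The interaction of Atp6ap2 was 0.43, 0.54 and 0.20 with quantile normalization, rescaling and the length correction.

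For DES in αERKO, Agt passed the threshold with a pseudocount of 0.1 (−2.52), sample weights (−1.24) and the length correction (−1.30), as did Agtr1a (−1.16, −0.76 and −1.12). At an adjusted p of 0.01, Agtr1a lost its calls in αERKO-veh (1.00) and in the interaction (1.16, and 0.77 with quantile normalization).

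Of the list genes, 3 were called in αERKO-veh relative to WT-veh at an adjusted p of 0.01. For the same DES comparison in αERKO, the count of 1 became 6 with a pseudocount of 0.1, 12 with sample weights, 5 with the length correction, and 0 with no FPKM minimum, quantile normalization or an adjusted p of 0.01. The interaction count was 32 with quantile normalization.

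With the replicate number as a block the count with DES in αERKO was 2, and no call of a member changed. Same-numbered samples did not deviate together (r −0.215 to 0.277 over 24 pairs, 3 of them over 0.1), so the numbers do not pair the samples.

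Leaving out each sample gave 4 to 10, 47 to 51, 0 to 7 and 48 to 54 called list genes in αERKO-veh relative to WT-veh, with DES in WT, with DES in αERKO and in the interaction, the 4 without αERKO-veh replicate 2. In that order, Agt ranged from −0.29 to 0.22, 0.15 to 0.66, −1.37 to −0.98 and 1.38 to 1.89. Ace ranged from 0.16 to 0.28, −2.64 to −2.17, 0.01 to 0.09 and −2.69 to −2.22. Agtr1a ranged from 0.79 to 1.22, −0.11 to 0.34, −1.19 to −0.88 and 0.95 to 1.39. Atp6ap2 ranged from 0.11 to 0.19, −0.09 to −0.01, −0.0583 to 0.0297 and −0.0684 to 0.0196. Ren2 in αERKO-veh relative to WT-veh ranged from −0.46 to 0.62 and was above 0 without WT-veh replicate 1 or αERKO-veh replicate 2.

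A sum of Ren1 and Ren2 was not run since Ren1 was not analysed here, and Ren2 had no length for the length correction. Depth is unknown, which limits what can be said of genes near 1 FPKM, such as Agt in αERKO-DES.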

Other observations

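Akr1b7, an aldose reductase-like gene of the vas deferens and of renin cells that was singled out after its values were seen, varied widely within WT-DES and both αERKO groups. The WT-veh samples had 529, 530.4, 695 and 845 FPKM, and the WT-DES samples 19.8, 70.9, 192 and 22.4. The αERKO-veh samples had 753, 84.7, 24.4 and 215 FPKM, and the αERKO-DES samples 555, 264, 14.9 and 9.06. It was called lower with DES in WT (log2 change −3.65, SE 1.24, limma adjusted p = 0.0152). Ren2 was 174 to 237 FPKM in the same αERKO-DES samples.

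Hsd11b2, which encodes the enzyme that shields the mineralocorticoid receptor from glucocorticoids and was also singled out after its values were seen, reached 10.45 FPKM in WT-DES replicate 3, while the other WT-DES samples had 1.21, 2.15 and 5.28 and the WT-veh samples 2.03 to 3.19. Its change was not called (log2 change 0.44, limma adjusted p = 0.286).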
